A study of Mus musculus with 32 samples.

Results

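The 8 genes described here encode enzymes of triglyceride synthesis, a set listed by gene name: Gpam, Agpat2, Agpat3, Lpin1, Lpin2, Mogat1, Dgat1 and Dgat2. This set and the other gene lists used below were chosen with earlier results of these data known, so the shares of them called are descriptions. They are 8 of the 55487 genes in the deposited table, and all 8 were among the 14903 genes that passed the filter on low counts. The study measured polyadenylated RNA of whole mouse liver in 32 libraries. Genotype was either wild type (WT) or FAAH S268D, an altered form of fatty acid amide hydrolase, an enzyme that breaks down fatty acid amides such as N-acyl taurines. The labels give diet as NASH or NASH-AA, and the series text gives 28 weeks on a diet it abbreviates HFFC, with or without ARA. The 4 groups, WT NASH, WT NASH-AA, FAAH S268D NASH and FAAH S268D NASH-AA, held 8 libraries each. Every group was thus on a diet of this kind, and no group on ordinary chow was analysed here. The sources used here give neither the mice's age, sex and strain background nor the way the FAAH allele was made.

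Liver stores and exports fat as triglyceride, a glycerol backbone that carries 3 fatty acids. In the glycerol phosphate route, Gpam adds the first fatty acid to glycerol phosphate on mitochondria, Agpat enzymes add the next to make phosphatidic acid, lipins remove the phosphate to give diacylglycerol, and Dgat1 or Dgat2 adds the last fatty acid. Mogat1 reaches diacylglycerol from monoacylglycerol, by a route best known from the intestine, and its RNA is known to rise in fatty liver.

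The libraries held 3851626 to 34370179 counts, with a median of 22896702. The shallowest was FAAH S268D NASH replicate 1, which also stood apart on the second principal component of all genes, at 98.7 against −21.3 to 21.9 for the other 31. The differences it moved most, those of Gpam and Lpin2, are given with and without it. On the first component the whole FAAH S268D NASH group was spread out, from −41.5 (replicate 5) to 46.6 (replicate 3). The sign there was positive for its replicates 1 to 4 and negative for 5 to 8. By comparison, WT NASH ran from −55.0 to 5.14 and FAAH S268D NASH-AA from −7.52 to 54.0. The cause of this division within FAAH S268D NASH was not tested. Of 15 hepatocyte markers, 0 were at 0 in every library of a group, and their summed level was 66744 to 119930 CPM, which is counts scaled to a common library size. The labels' library names run from 1 to 32, and what those numbers stand for is not given. Numbers 1 to 16 held 4, 3, 5 and 4 libraries of the groups in the order above, and 17 to 32 held the rest. Whether each library of a group is its own mouse is not in the labels, and p-values here refer to the spread among libraries, which may be technical. In whole liver, fewer cells of a type and less RNA per cell cannot be told apart.

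RefSeq promoter windows for build GRCm38.p6 were found for 6 of the 8 genes, as 9 windows. The 250 bases before the start are shown for 3 genes whose window lay wholly outside the annotated gene: Gpam, which varied most between libraries among the 4 enzymes most abundant per kilobase, Agpat2, which differed between genotypes, and Lpin1, which had the largest diet difference of the set in wild type. Capitals mark matches to the motifs searched, read 5′ to 3′ on the gene's strand.
Gpam, chr19:55127239-55127488, minus strand: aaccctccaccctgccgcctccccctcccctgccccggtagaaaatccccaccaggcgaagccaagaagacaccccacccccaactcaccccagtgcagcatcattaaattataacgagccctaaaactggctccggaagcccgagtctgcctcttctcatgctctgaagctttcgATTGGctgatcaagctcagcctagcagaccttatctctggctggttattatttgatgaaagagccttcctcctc
Agpat2, chr2:26604418-26604667, minus strand: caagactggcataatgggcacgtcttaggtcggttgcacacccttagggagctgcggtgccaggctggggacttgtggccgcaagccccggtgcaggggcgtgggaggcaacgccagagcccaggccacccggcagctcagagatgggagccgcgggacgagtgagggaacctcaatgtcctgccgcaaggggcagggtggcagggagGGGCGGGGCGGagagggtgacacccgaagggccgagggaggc
Lpin1, chr12:16610967-16611216, minus strand: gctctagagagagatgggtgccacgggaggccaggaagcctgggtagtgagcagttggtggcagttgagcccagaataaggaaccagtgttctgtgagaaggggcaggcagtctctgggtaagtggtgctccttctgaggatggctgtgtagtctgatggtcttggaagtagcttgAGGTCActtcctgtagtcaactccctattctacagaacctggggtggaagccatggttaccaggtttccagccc
Both strands were searched for CACGTG (E-box), TCACNCCAC (a sterol element), the CCAAT box, the GC box GGGCGG and the nuclear receptor element AGGTCA. Of 32851 promoter windows of the same length, these were held by 6.02%, 1.05%, 33.8%, 32.7% and 14%. The Gpam window held 1 CCAAT box, read on the opposite strand, 74 bases before the start. Agpat2 held 2 GC box matches that overlap each other, 42 and 37 bases before the start. Lpin1 held 1 AGGTCA, 74 bases before the start. The windows of Agpat3 and Mogat1 held 0 of the 5 motifs. A match is a description of letters, not a binding site.

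Per kilobase of exon, the level order over the 32 libraries was Dgat2 (170.3 CPM per kb), Agpat2 (108), Gpam (45.8), Agpat3 (37.4), Lpin2 (23.6), Lpin1 (8.84), Dgat1 (6.35) and Mogat1 (5.56). Dgat2 thus stood at the 98.1 percentile of 14884 tested genes with a length, and Mogat1 at the 67.3. Over the 32 libraries every pair of neighbours in this order overlapped, except that the lowest Agpat3 library (31.9 CPM per kb) lay above the highest Lpin2 library (31.5).

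**Figure D1:**
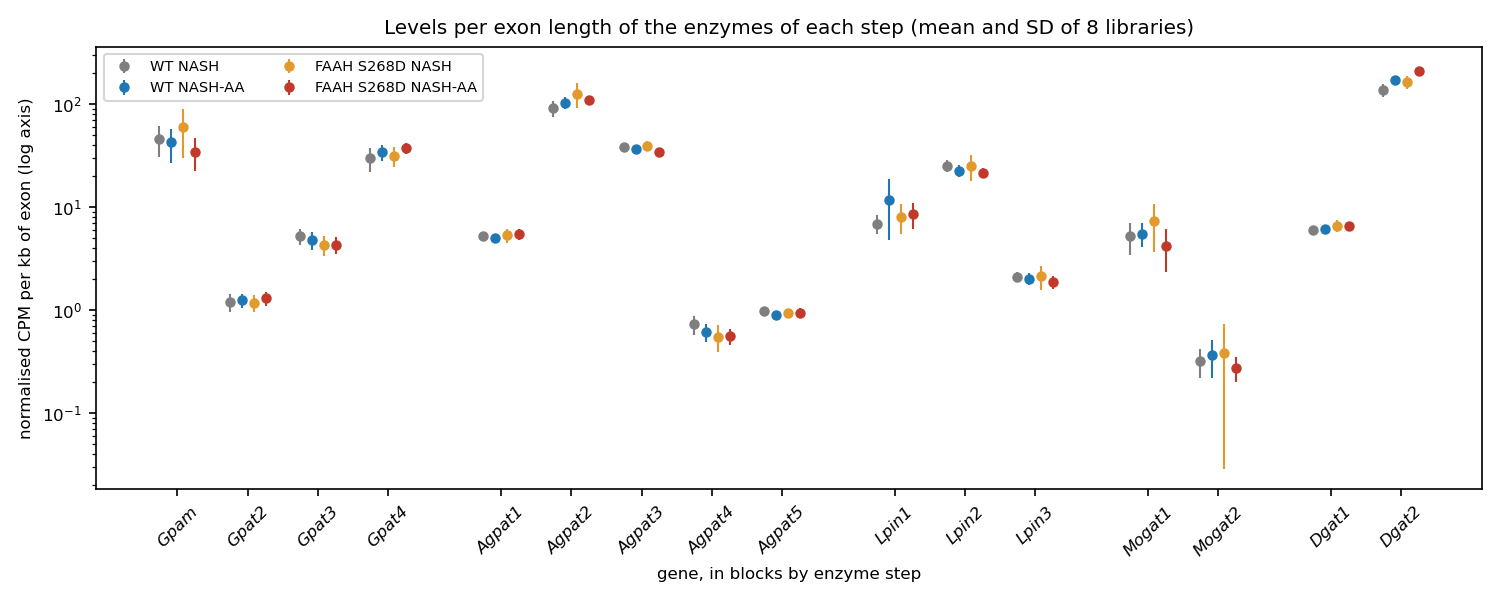
Level per kilobase of exon (normalised CPM per kb, log axis) of the enzymes of each step, in blocks for the glycerol phosphate, acylglycerol phosphate, lipin, monoacylglycerol and diacylglycerol steps. Points are means and lines the SD of 8 libraries, coloured by group, and Agpat2, Lpin2, Mogat1 and Dgat2 are highest in their blocks in every group.

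Each step was dominated, in RNA, by few of its isoenzymes. Of the summed level per kilobase of Dgat1 and Dgat2, Dgat2 made up 95.7% ± 0.543 (SD, n = 8) for WT on NASH, 96.5% ± 0.314 for WT on NASH-AA, 96.1% ± 0.493 for FAAH S268D on NASH and 96.9% ± 0.431 for FAAH S268D on NASH-AA. Agpat2 held 66.6% of Agpat1 to Agpat5 in WT NASH and 70.3% to 72.5% in the other 3 groups, and Agpat3 held 28.3% in WT NASH and 22.8% to 25.3% elsewhere. Lpin2 held 73.7% of the lipin sum for WT on NASH, 63.6% for WT on NASH-AA, 70.2% for FAAH S268D on NASH and 67.6% for FAAH S268D on NASH-AA. The glycerol phosphate step was shared more evenly: Gpam held 55.0%, 50.4%, 58.1% and 43.8% in the same order, and Gpat4, an isoenzyme of the endoplasmic reticulum, 37.0%, 42.2%, 35.6% and 48.9%. Mogat1 held 92.5% to 94.2% of Mogat1 and Mogat2. These shares were not tested between groups.

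**Figure D2:**
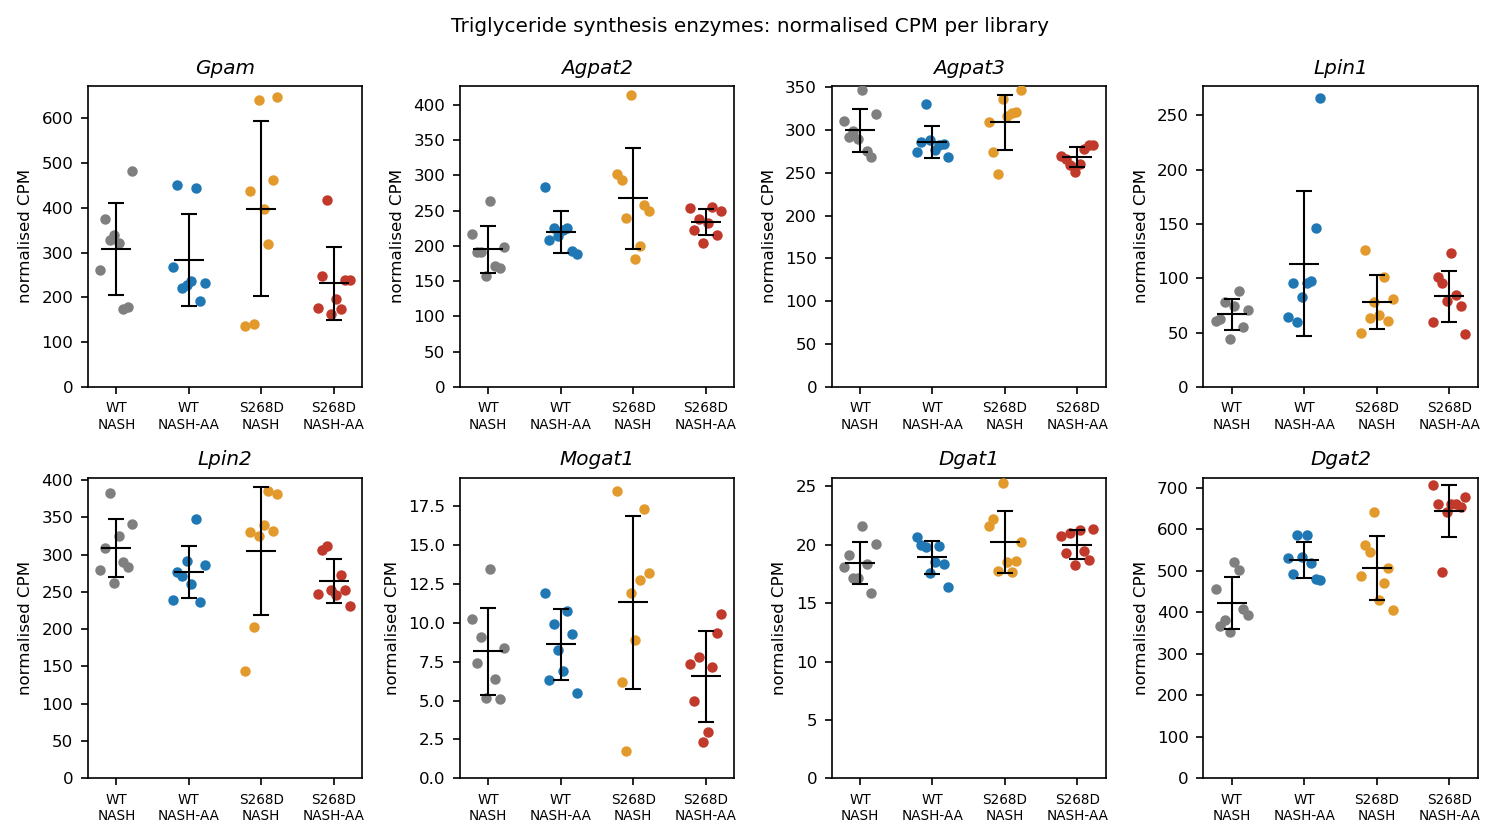
Normalised CPM of each gene in every library, by genotype (WT, or S268D for FAAH S268D) and diet; dots are libraries, bars the mean and SD of 8, and each axis starts at 0. Dgat2 is lowest in WT NASH (mean 423 CPM) and highest in FAAH S268D NASH-AA (645 CPM), and Lpin1 has the largest coefficient of variation over all 32 libraries (47.3%), followed by Gpam (44.8%) and Mogat1 (44.5%).

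In wild-type mice, NASH-AA livers had more Dgat2 RNA than NASH livers, and the other 7 enzymes did not pass the test. Dgat2, at chromosome 7, 99153658 to 99182719 (GRCm38, minus strand), encodes the diacylglycerol acyltransferase that serves lipid droplets and newly made fat. It measured 353 to 522 CPM, with a median of 401, in WT NASH, and 479 to 586 CPM, with a median of 525, in WT NASH-AA. All 8 WT NASH-AA libraries lay above the WT NASH median and 4 above every WT NASH library, so the ranges overlapped. The log2 fold change was 0.33 ± 0.09 (SE), with an adjusted p of 0.0369 by limma-voom over all tested genes. Dgat2 was the 1 enzyme of 8 called, against 4.41% of all tested genes called in this comparison, 1.44% higher and 2.97% lower. Dgat1, the isoenzyme of the endoplasmic reticulum that also esterifies fatty acids from outside the cell, was level at 18.4 ± 1.81 and 18.9 ± 1.45 CPM (mean ± SD, n = 8), with a 95% interval of −0.10 to 0.18 for the log2 fold change.

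The Dgat2 call in wild type was close to the threshold. It was lost when any 1 of 10 libraries was left out, replicates 2, 3, 4, 7 and 8 of WT NASH and 3, 4, 5, 7 and 8 of WT NASH-AA (log2 fold change 0.29 to 0.37 over all 32 omissions). It was also lost with a scaling to library totals alone (0.20, adjusted p = 0.0523), and within library numbers the log2 fold change was 0.48 (adjusted p = 0.365) for 1 to 16 and 0.19 (adjusted p = 0.281) for 17 to 32. Each number range held only 3 to 5 libraries of a group, so a call lost within a range does not show that the difference is absent.

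In FAAH S268D mice, 0 of the 8 enzymes passed the test between diets by limma-voom, against 0.0939% of all tested genes (0.0268% higher, 0.0671% lower), although 3 of the 8 had an unadjusted p under 0.05 (Dgat2, Agpat3 and Gpam). The same 0 came from limma-trend, and weights for library quality gave 3. Dgat2 measured 406 to 641 CPM, with a median of 498, on NASH, and 498 to 706 CPM, with a median of 660.4, on NASH-AA. Of the NASH-AA libraries, 7 lay above every NASH library and replicate 3, at 498 CPM, lay within the NASH range. The log2 fold change, 0.36 ± 0.09, was not past the threshold (limma-voom adjusted p = 0.0881). It passed without FAAH S268D NASH replicate 3 (adjusted p = 0.0266) and without FAAH S268D NASH-AA replicate 3. The diet difference of Dgat2 in FAAH S268D minus that in wild type was 0.03, with a 95% interval of −0.22 to 0.29.

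**Figure D3:**
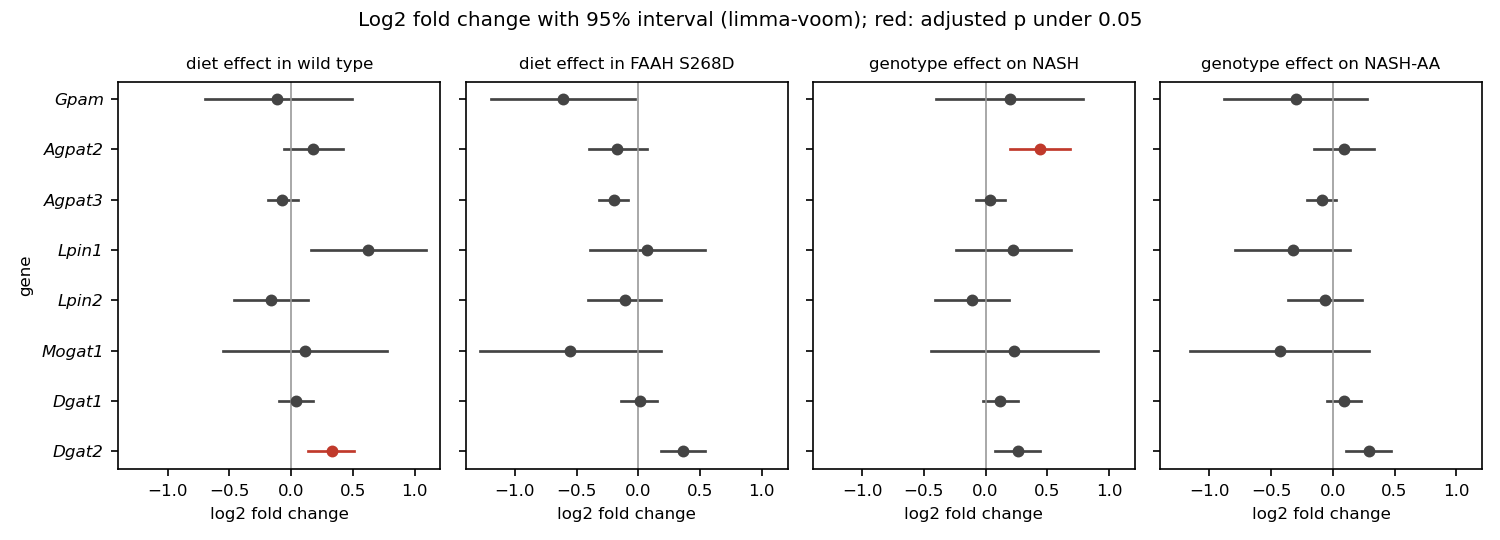
Log2 fold changes of the 8 genes in the 4 comparisons (horizontal axis) with 95% intervals; diet effects are NASH-AA over NASH, genotype effects FAAH S268D over WT, and red marks an adjusted p under 0.05. Red are Dgat2 for diet in wild type (0.33) and Agpat2 for genotype on NASH (0.44), while the Dgat2 points lie between 0.26 and 0.36 in all 4 panels.

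Averaged over both genotypes, a comparison added after the data were seen, Dgat2 was higher on NASH-AA by a log2 fold change of 0.34 ± 0.06 (limma-voom adjusted p = 0.00201). Agpat3 was lower by a log2 fold change of −0.13 ± 0.04 (limma-voom adjusted p = 0.0433). These were 2 of 8 enzymes, against 10.9% of all tested genes, 4.62% higher and 6.28% lower. Dgat2 kept its call in all 32 omissions of 1 library, with 0.32 to 0.37, and was 0.36 within library numbers 1 to 16 (adjusted p = 0.318) and 0.36 within 17 to 32 (adjusted p = 0.00685). The Agpat3 call was lost in 16 of the 32 omissions: replicates 1, 2, 3 and 8 of WT NASH, 4 to 8 of WT NASH-AA, 5 to 8 of FAAH S268D NASH, and 2, 4 and 5 of FAAH S268D NASH-AA.

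Between genotypes on NASH, FAAH S268D livers had more Agpat2 RNA than WT livers. Agpat2, at chromosome 2, 26593057 to 26604417 (minus strand), makes phosphatidic acid and is the enzyme lost in a form of congenital lipodystrophy. It measured 158 to 264 CPM, with a median of 192, in WT NASH, and 182 to 414 CPM, with a median of 253, in FAAH S268D NASH. Of the FAAH S268D libraries 7 lay above the WT median and 3 above every WT library, so the ranges overlapped. The log2 fold change was 0.44 ± 0.12, with a limma-voom adjusted p of 0.0182. Agpat2 was the 1 enzyme of 8 called, against 9.18% of all tested genes, 2.89% higher and 6.29% lower, and 1 of 8 is a share near that background. Without FAAH S268D NASH replicate 4, at 414 CPM, the call was lost at a log2 fold change of 0.35. It was 0.58 within library numbers 1 to 16 (adjusted p = 0.0643) and 0.24 within 17 to 32 (adjusted p = 0.620).

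Dgat2 differed by 0.26 ± 0.09 between genotypes on NASH, not past the threshold (limma-voom adjusted p = 0.0572). Within library numbers 1 to 16 it differed by 0.46 and was past the threshold, where Agpat2 was not. Within 17 to 32 it differed by 0.01 and was not past the threshold. On NASH-AA, 0 of the 8 enzymes passed by limma-voom, against 0.658% of all tested genes (0.349% higher, 0.309% lower), and Dgat2 was the 1 with an unadjusted p under 0.05. Limma-trend gave 0 as well, and weights for library quality gave 1. There Dgat2 differed by 0.29 ± 0.09 (adjusted p = 0.134), with 7 FAAH S268D libraries above every WT library. Agpat2 differed by 0.09 ± 0.12 on NASH-AA, at 220 ± 29.5 CPM in WT and 234 ± 18.97 in FAAH S268D (mean ± SD, n = 8). Averaged over both diets, a comparison also added after the data were seen, 2 of 8 enzymes were called, against 17.2% of all tested genes, 6.90% higher and 10.3% lower. They were Dgat2, higher in FAAH S268D by 0.28 ± 0.06 (limma-voom adjusted p = 0.00348), and Agpat2, higher by 0.26 ± 0.08 (limma-voom adjusted p = 0.0272). Both kept their call in all 32 omissions, and neither passed within library numbers 1 to 16 or 17 to 32 alone (adjusted p of 0.0529 and 0.253 for Dgat2, 0.266 and 0.273 for Agpat2). With fewer libraries per group, a call is harder to reach within a range.

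The hepatocyte markers moved with Dgat2. Their summed CPM had medians of 76442 for WT on NASH, 94886 for WT on NASH-AA, 90661 for FAAH S268D on NASH and 108770 for FAAH S268D on NASH-AA, with ranges of 66744 to 97181, 82380 to 105130, 73726 to 119930 and 101530 to 116140. Per 1000 CPM of these markers, Dgat2 was 5.36 ± 0.480 (SD, n = 8), 5.58 ± 0.358, 5.48 ± 0.575 and 5.93 ± 0.552 in the same order. The order of the groups was as before, and every pair of ranges overlapped. Agpat2 per 1000 CPM of markers was 2.49 ± 0.364 for WT on NASH, 2.33 ± 0.320 for WT on NASH-AA, 2.85 ± 0.429 for FAAH S268D on NASH and 2.15 ± 0.211 for FAAH S268D on NASH-AA. The 14 macrophage and Kupffer cell markers, 0 of them at 0 throughout a group, went the other way: their sum had a median of 935 CPM (397 to 1275) for WT on NASH, 556 (455 to 669) for WT on NASH-AA, 512 (288 to 775) for FAAH S268D on NASH and 410.1 (275 to 510.4) for FAAH S268D on NASH-AA. The part of the cell makeup in the Dgat2 and Agpat2 differences was not tested.

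**Figure D4:**
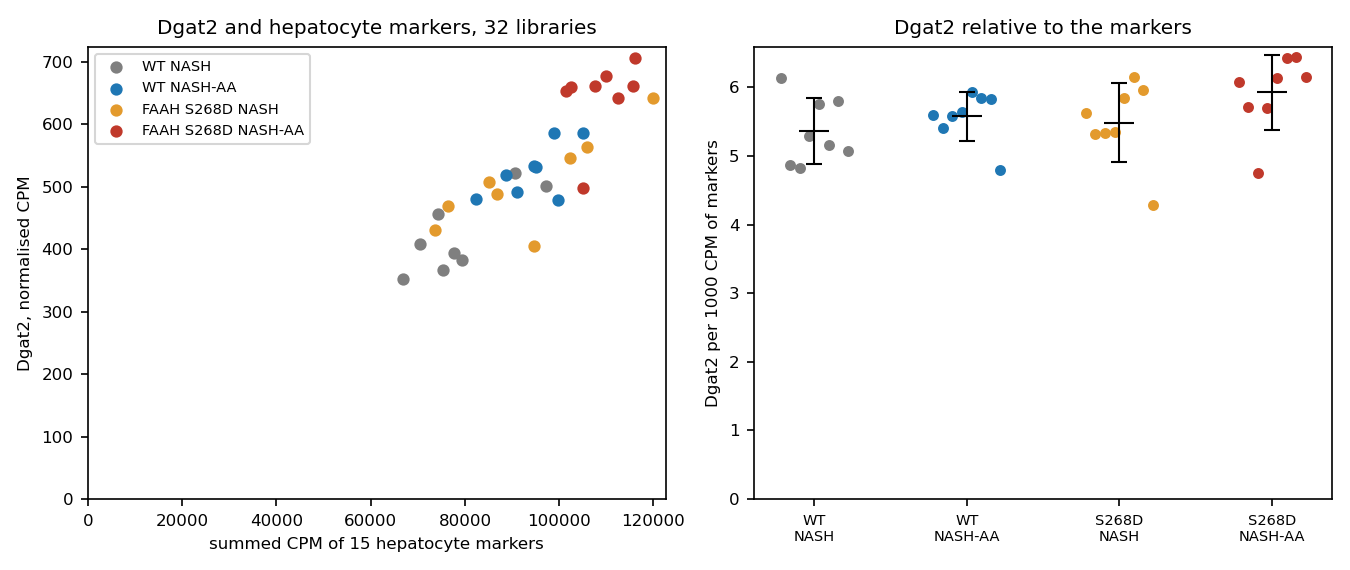
Left, normalised CPM of Dgat2 (vertical) against the summed CPM of 15 hepatocyte markers (horizontal) in the 32 libraries; right, Dgat2 per 1000 CPM of those markers by group, with mean and SD of 8 libraries (S268D stands for FAAH S268D). Dgat2 rises with the marker sum across libraries, and on the right the group means lie between 5.36 and 5.93 with ranges that overlap.

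Gpam, at chromosome 19, 55067268 to 55127238 (minus strand), encodes the mitochondrial acyltransferase of the first step and is a known target of the lipogenic factor SREBP-1c. It measured 174 to 483 CPM (median 325) in WT NASH and 192 to 450.0 CPM (median 234) in WT NASH-AA. In FAAH S268D it measured 137 to 647 CPM (median 418) on NASH and 162 to 417 CPM (median 218) on NASH-AA. The groups overlapped, and on NASH the FAAH S268D libraries held both the lowest and the highest values of all 32. The diet difference was −0.11 ± 0.29 in wild type and −0.61 ± 0.29 in FAAH S268D (limma-voom adjusted p = 0.853 and 0.383), and genotype differences were 0.20 ± 0.29 on NASH and −0.30 ± 0.29 on NASH-AA. All 8 FAAH S268D NASH-AA libraries lay below the FAAH S268D NASH median. The 2 lowest Gpam libraries of all were FAAH S268D NASH replicates 1 (137 CPM, the shallowest) and 3 (141 CPM), and without replicate 1 the log2 differences became −0.85 between diets and 0.44 between genotypes on NASH, neither past the threshold (adjusted p = 0.214 and 0.316). Over all 32 omissions the genotype difference on NASH ran from 0.07, without FAAH S268D NASH replicate 8, to that 0.44. The difference between the diet effects of Gpam was −0.50 with replicate 1 and −0.74 without it.

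Agpat3, at chromosome 10, 78269178 to 78352489 (minus strand), is an acyltransferase of the Golgi and endoplasmic reticulum that prefers polyunsaturated fatty acids. Its coefficient of variation was the smallest of the 8 in each of the 4 groups, 8.40%, 6.64%, 10.5% and 4.36% in the order used above. It measured 268.4 to 347 CPM (median 295) in WT NASH and 269 to 331 CPM (median 283) in WT NASH-AA. In FAAH S268D it measured 249 to 347 CPM (median 318) on NASH and 251 to 283 CPM (median 268.1) on NASH-AA. All 8 FAAH S268D NASH-AA libraries lay below the FAAH S268D NASH median, and 7 of 8 NASH libraries lay above the NASH-AA median. The diet difference was −0.20 ± 0.06 in FAAH S268D (adjusted p = 0.164 by limma-voom; 0.0141 without FAAH S268D NASH replicate 3) and −0.07 ± 0.06 in wild type (adjusted p = 0.525).

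Among the lipins, neither Lpin1 nor Lpin2 passed the test in these comparisons, although Lpin1 had the largest log2 fold change of the 8 enzymes in wild type. Lpin1, at chromosome 12, 16535669 to 16610966 (minus strand), encodes a phosphatidate phosphatase that also acts as a transcriptional coactivator and responds to fasting. It measured 44.3 to 88.6 CPM (median 66.7) in WT NASH and 59.8 to 266 CPM (median 95.6) in WT NASH-AA. In WT NASH-AA, replicates 7 and 8 reached 147 and 266 CPM, and 5 of the 8 libraries lay above every WT NASH library. The log2 fold change of 0.62 ± 0.23 was not past the threshold (limma-voom adjusted p = 0.0927), and it was 0.42 without replicate 8. In FAAH S268D, Lpin1 measured 49.8 to 126 CPM (median 72.4) on NASH and 48.4 to 123 CPM (median 81.9) on NASH-AA, a log2 fold change of 0.07 ± 0.23. The difference between the 2 diet effects was −0.55 ± 0.32 (limma-voom adjusted p = 0.906), so the diet effects were not shown to differ.

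Lpin2, at chromosome 17, 71182560 to 71249817 (plus strand), encodes the lipin best represented in liver. It measured 262 to 382 CPM (median 299.7) for WT on NASH, 237 to 348 CPM (median 274) for WT on NASH-AA, 144 to 386 CPM (median 331) for FAAH S268D on NASH and 232 to 312 CPM (median 252) for FAAH S268D on NASH-AA. The groups overlapped, and FAAH S268D NASH replicate 1, the shallowest library, was the lowest of all 32. Differences ran from −0.16 to −0.06 in the 4 comparisons, with limma-voom adjusted p of 0.518 to 0.885. Without replicate 1 the log2 difference between genotypes on NASH went from −0.11 to 0.07, that between diets in FAAH S268D from −0.11 to −0.29, and the difference between the diet effects from 0.05 to −0.13. Between diets in FAAH S268D, Lpin2 was 0.16 within library numbers 1 to 16 (adjusted p = 0.999) and −0.55 within 17 to 32 (adjusted p = 0.0258).

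Mogat1, at chromosome 1, 78510991 to 78538173 (plus strand), was the least abundant member and had at least 34 counts in each library. It measured 5.13 to 13.5 CPM (median 7.91) in WT NASH and 5.52 to 11.95 CPM (median 8.75) in WT NASH-AA. In FAAH S268D it measured 1.78 to 18.5 CPM (median 12.3) on NASH and 2.36 to 10.6 CPM (median 7.25) on NASH-AA. The extremes of all 32 libraries were both in FAAH S268D NASH: replicate 3 was the lowest and replicate 1, the shallowest, the highest. The diet difference in FAAH S268D was −0.55 ± 0.36 (limma-voom adjusted p = 0.555) and became −0.90 without replicate 3 (adjusted p = 0.0749). In the annotation, 200 exon bases of Mogat1 (12.8%) overlap BC035947 on the opposite strand, which averaged 0.783 CPM. Agpat2 shares 64 exon bases (3%) with Egfl7 on the opposite strand, at 25.4 CPM, and as the use of strand in counting is not given, reads from these stretches cannot be told apart.

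Dgat1, at chromosome 15, 76502015 to 76511953 (minus strand), was nearly level over the groups. In wild type it measured 15.8 to 21.6 CPM (median 18.2) on NASH and 16.4 to 20.7 CPM (median 19.2) on NASH-AA. In FAAH S268D it measured 17.7 to 25.3 CPM (median 19.4) on NASH and 18.3 to 21.4 CPM (median 20.1) on NASH-AA, so all ranges overlapped. Log2 differences were 0.04 ± 0.07 and 0.01 ± 0.07 between diets and 0.12 ± 0.07 and 0.09 ± 0.07 between genotypes, with limma-voom adjusted p of 0.283 or more. Agpat3 and Lpin1 were likewise not past the threshold between genotypes: Agpat3 differed by 0.04 ± 0.06 on NASH and −0.09 ± 0.06 on NASH-AA, and Lpin1 by 0.22 ± 0.23 and −0.32 ± 0.23, the last being −0.13 without WT NASH-AA replicate 8. Mogat1 differed between genotypes by 0.23 ± 0.33 on NASH, with 0.58 without FAAH S268D NASH replicate 3 and 0.07 without its replicate 7, and by −0.43 ± 0.36 on NASH-AA (limma-voom adjusted p = 0.714 and 0.593).

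**Figure D5:**
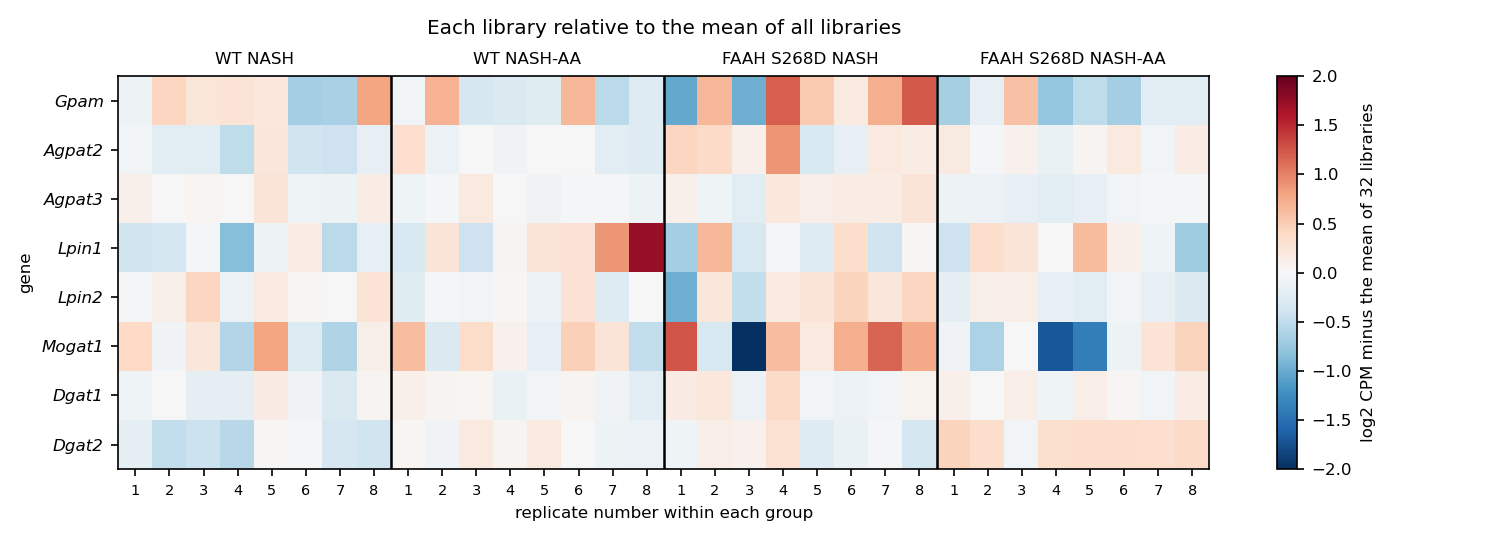
Log2 CPM of each gene (rows) in each of the 32 libraries (columns, by group and replicate) minus that gene's mean over all libraries; red is above and blue below the mean, and colours end at −2 and 2. FAAH S268D NASH replicates 1 and 3 are low for Gpam and Lpin2, and Dgat2 is high in 7 of the 8 FAAH S268D NASH-AA libraries.

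Spread differed between groups for several members. For 7 of the 8 enzymes the coefficient of variation was largest for FAAH S268D on NASH, the exception being Lpin1, and its median over the 8 was 27.6% there, 16.03% for WT on NASH, 13.04% for WT on NASH-AA and 10.4% for FAAH S268D on NASH-AA. In WT NASH-AA the coefficient of Lpin1 was 59.1%. These spreads were not tested between groups. Within groups, the same library was often the extreme for several enzymes: WT NASH replicate 5 was highest for 5 of the 8 and replicate 4 lowest for 4, and WT NASH-AA replicate 8 and FAAH S268D NASH-AA replicate 4 were each lowest for 5. In FAAH S268D NASH, replicate 1, the shallowest library of all, was lowest for 3 and highest for 1, and replicate 4 was highest for 3. The part of depth in the wide spread of that group was not tested. As a set, the 8 enzymes had a median log2 fold change of 0.08 for diet in wild type, −0.14 for diet in FAAH S268D, 0.21 for genotype on NASH and −0.08 for genotype on NASH-AA. The median of all tested genes was 0.005, 0.005, 0.000 and 0.002 in the same order. In these 4 comparisons 5, 3, 7 and 3 of the 8 were positive. For the difference between the diet effects, 0 of 8 enzymes and 0% of all tested genes passed by limma-voom, with 627 genes and 1 enzyme, Agpat2, at an unadjusted p under 0.05, and limma-trend gave 0 enzymes too. The ranges of 2 groups did not overlap for 0 of the 8 enzymes in any of the 4 comparisons, against 0.282%, 0.0604%, 0.215% and 0.624% of all tested genes.

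Across the 32 libraries some pairs of enzymes had a like pattern, here given as descriptions over libraries that share groups and depth. Dgat1 and Agpat2 had a Spearman correlation of 0.77 (Pearson 0.83, and 0.73 without the 2 libraries farthest from the median), with 0.79 within library numbers 1 to 16 and 0.75 within 17 to 32. Agpat3 and Mogat1 reached 0.75, and Gpam and Lpin2 0.72, the latter with a Pearson correlation of 0.73 also without the shallowest library. Dgat2 and Agpat2, both higher in FAAH S268D averaged over diets, stood at 0.56. Dgat2 and Lpin2 had a negative correlation, at −0.44, with −0.23 within library numbers 1 to 16 and −0.63 within 17 to 32. Their Pearson correlation was −0.33, and −0.18 once each group's mean was removed. The isoenzymes Dgat1 and Dgat2 stood at 0.43, Agpat2 and Agpat3 at 0.08, and Lpin1 and Lpin2 at 0.26. Gpam and Agpat3 stood at 0.51 and Agpat3 and Lpin2 at 0.46, so the like pairs were not separate from each other. The rest of the 28 pairs are not given here.

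The genes most like each enzyme were sought among 11825 named genes with a mean of at least 1 CPM, by Spearman correlation over the 32 libraries. For Gpam they were Hmgcs1 (0.95), Fasn (0.93) and Sc5d (0.93), of cholesterol synthesis, fatty acid synthesis and cholesterol synthesis. For Dgat2 they were Nr1i3 (0.95), which encodes the nuclear receptor CAR, Pbld2 (0.95) and Car3 (0.93), a carbonic anhydrase abundant in liver. Agpat2 was most like Pex16 (0.91), a peroxisome assembly gene, Gstt1 (0.89) and Rbpms2 (0.87). Mogat1 was most like Dhrs7b (0.91), Hsd17b12 (0.89), an enzyme of fatty acid elongation, and Aldh1a7 (0.86). Agpat3 went with Rnpepl1 (0.87), Pigq (0.84) and Mgll (0.83), the monoacylglycerol lipase. Lpin2 went with Mknk2 (0.81) and Nadk (0.79), Lpin1 with Hs3st3b1 (0.78), Garem1 (0.71) and Thrb (0.69), a thyroid hormone receptor, and Dgat1 with Agpat2, Abcb8 (0.74) and Rhbdd3 (0.73).

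Other genes of the pathway were taken in 4 lists. Of all tested genes, 4.41% passed for diet in wild type and 9.18% for genotype on NASH. For diet in wild type 1 of 14 other enzymes, 1 of 8 glycerol supply genes and 0 of 13 uptake and activation genes passed. Of 18 branch genes, described further below, 1 was higher and 2 were lower. For genotype on NASH these were 1 of 14, 0 of 8, 1 of 13 and, all lower, 3 of 18. Of 16 other enzymes of both routes 14 were tested, and Plpp2, a lipid phosphate phosphatase, was lower for diet in wild type (log2 fold change −0.52 ± 0.15, limma-voom adjusted p = 0.0464) and for genotype on NASH (−0.51 ± 0.16, adjusted p = 0.0379). It averaged 27.5 ± 4.43 CPM with genotype WT on NASH, 19.3 ± 4.11 for WT on NASH-AA, 20.4 ± 6.98 for FAAH S268D on NASH and 14.4 ± 1.46 for FAAH S268D on NASH-AA (mean ± SD, n = 8). The diet call was lost in 20 of 32 omissions of 1 library: replicates 1 to 4, 7 and 8 of WT NASH, 3 to 8 of WT NASH-AA, 7 of FAAH S268D NASH, and 1, 2 and 4 to 8 of FAAH S268D NASH-AA. The genotype call was lost in 8, replicates 1 to 4 and 7 of WT NASH and 2 to 4 of FAAH S268D NASH. The other 13 did not pass in any of these 4 comparisons. Of 13 genes of fatty acid uptake and activation tested, Slc27a5, the bile acid and long-chain fatty acid CoA ligase of hepatocytes, was higher in FAAH S268D on NASH (0.49 ± 0.10, limma-voom adjusted p = 0.00540), at 424.8 to 698 CPM in WT and 543 to 969.8 CPM in FAAH S268D. Of 8 genes of glycerol supply tested, Aqp7, the glycerol channel of adipocytes, was lower for diet in wild type (−2.64 ± 0.75, limma-voom adjusted p = 0.0424). The call was lost in 11 of 32 omissions, replicates 2, 3, 4, 7 and 8 of WT NASH and 3 to 8 of WT NASH-AA. Aqp7 was near the detection limit, at a median of 2.57 CPM in WT NASH and 0.202 in WT NASH-AA. Beside Aqp7, the summed level of 10 adipocyte markers, 6 of them tested, was 227 to 383 CPM in WT NASH and 142 to 302 CPM in WT NASH-AA. The medians of this sum were 301 CPM in WT NASH and 175 CPM in WT NASH-AA. Of these 10 markers, Lep was at 0 in all 32 libraries and Adipoq reached at most 0.163 CPM. Nearly all of the sum thus came from the other markers of the list. The part of adipocytes in the Aqp7 difference was not tested.

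Among 18 genes that draw on the same intermediates, all tested, diet in wild type changed 3, beside 4.41% of all tested genes: Chpt1, which turns diacylglycerol into phosphatidylcholine, was higher (0.50 ± 0.11, limma-voom adjusted p = 0.0196), and Cds1, which turns phosphatidic acid toward phosphatidylinositol (−0.89 ± 0.18, adjusted p = 0.0175), and Dgkz, a diacylglycerol kinase (−0.33 ± 0.07, adjusted p = 0.0175), were lower. Genotype on NASH changed 3, all lower, beside 9.18% of all tested genes: Cds1 (−0.74 ± 0.18, limma-voom adjusted p = 0.0117), Soat1, which esterifies cholesterol in macrophages (−0.79 ± 0.20, adjusted p = 0.0138), and Dgkz (−0.24 ± 0.07, adjusted p = 0.0282). Cds1 was rare, with a median of 1.09 CPM in WT NASH and 0.596 in WT NASH-AA, and Soat1 fell beside the macrophage marker sums given above, whose part was not tested. With 1 library left out, Chpt1 was lost without WT NASH replicate 2 or WT NASH-AA replicate 5, Dgkz for diet without WT NASH replicate 2, and Soat1 without FAAH S268D NASH replicate 4. Dgkz for genotype was lost without WT NASH replicates 2, 4 or 7 or FAAH S268D NASH replicates 2, 3 or 4. For diet in FAAH S268D and genotype on NASH-AA, 0 genes of these 4 lists passed, against 0.0939% and 0.658% of all tested genes. In the averaged comparisons more passed: for diet 2 of 14 other enzymes, 1 of 8 glycerol supply genes, 4 of 13 uptake and activation genes and 4 of 18 branch genes, against 10.9% of all tested genes. For genotype these were 3 of 14, 0 of 8, 4 of 13 and 3 of 18, against 17.2%. The comparisons share groups and so are not independent of each other.

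Of 26 transcriptional regulators of lipid synthesis and 8 genes of the lipin phosphatase and its regulators, 0 passed by limma-voom in these 4 comparisons. Of all tested genes, 4.41% passed for diet in wild type and 9.18% for genotype on NASH. For diet in FAAH S268D and genotype on NASH-AA only 0.0939% and 0.658% did, so 0 in these lists is near that background. The smallest p among the regulators belonged to Med15, a Mediator subunit, for diet in wild type (−0.15 ± 0.06, adjusted p = 0.0984) and to Mlx, the partner of the carbohydrate response factor, for genotype on NASH (0.21 ± 0.07, adjusted p = 0.0573). Insig2, which retains the sterol sensor complex in the endoplasmic reticulum, had it for diet in FAAH S268D (−0.59 ± 0.21, adjusted p = 0.252) and for genotype on NASH-AA (−0.59 ± 0.21, adjusted p = 0.186). Among the lipin regulators it was Akt2, a kinase of insulin signalling, for diet in wild type (0.05 ± 0.05, adjusted p = 0.540) and genotype on NASH (0.14 ± 0.05, adjusted p = 0.0692), and Ctdnep1, the phosphatase that acts on lipins, for diet in FAAH S268D (−0.10 ± 0.06, adjusted p = 0.482) and genotype on NASH-AA (−0.11 ± 0.06, adjusted p = 0.360). In the comparison averaged over genotypes, the regulators Mlxipl, the carbohydrate response factor (0.27 ± 0.08, limma-voom adjusted p = 0.0259), Foxo1 (0.28 ± 0.08, adjusted p = 0.0231) and Rxra (0.21 ± 0.07, adjusted p = 0.0417) were higher on NASH-AA, 3 of 26 against 10.9% of all tested genes. Averaged over diets, Nr0b2, the bile acid induced repressor SHP (0.60 ± 0.18, limma-voom adjusted p = 0.0207), and Scap, the escort of the sterol response factors (0.20 ± 0.06, adjusted p = 0.0298), were higher in FAAH S268D, 2 of 26 against 17.2%. Of the lipin regulators, 1 of 8, Akt2, was also higher averaged over diets (0.11 ± 0.04, limma-voom adjusted p = 0.0372).

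Some markers of other cells passed the test in these comparisons. Of all tested genes, 1.44% were called higher and 2.97% lower for diet in wild type. For genotype on NASH these shares were 2.89% and 6.29%. For diet in FAAH S268D and genotype on NASH-AA, 0.0671% and 0.309% were called lower. In lists of this size, 1 called marker is not read as a shift of the cell type. Macrophage and Kupffer cell markers were lower for 2 of 14 by diet in wild type and 8 of 14 by genotype on NASH, and hepatocyte markers were higher for 3 and lower for 1 of 15 in both. Lymphocyte markers were lower for 4 of 10 by genotype on NASH, cholangiocyte markers for 2 of 7 tested and sinusoidal markers for 1 of 8 by diet in wild type, and stellate cell markers for 1 of 10 in each of these 2 comparisons. Of adipocyte markers, 1 of 6 tested was higher by diet in wild type and 1 lower by genotype on NASH, and 0 of 6 erythroid markers passed in the 4 comparisons. Of 4 tested pancreas and intestine markers, Apoa4, an apolipoprotein that liver also makes, was the 1 lower by diet in FAAH S268D and by genotype on NASH-AA. The summed level of all 9 had medians of 3666 CPM (1480 to 5422) for WT on NASH and 1420.2 (779 to 2579) for WT on NASH-AA. In FAAH S268D it was 3529 CPM (558 to 5201) on NASH and 595 (394 to 869) on NASH-AA. Apoa4 alone had medians of 3558, 1306, 3363 and 507 CPM in the same order, and 2 or 3 of the 9 were at 0 throughout a group. The part of these markers in the enzyme differences was not tested.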

How the data were processed

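Whole-liver mouse RNA was sequenced in 32 libraries, 8 in each group. Per the submitters' processing notes, tools were Trim Galore 0.6.7 for trimming, UMI-tools (version 1.1.2) and STAR, version 2.7.10, and the build was GRCm38. The sources used here do not give the counting program or whether it used strand. What the authors deposited is a single table of unscaled estimated counts per gene, in which a spreadsheet had changed the form of some values to others. Of 1775584 cells 87.9% were whole numbers, 11.4% carried digit-grouping marks, 0.464% were clock times and 0.107% were fractions of a day; each form was reversed by rule and the result rounded. Of the 256 cells of the 8 enzymes 127 were restored, and 0 had 2 possible originals. Library columns that belong to no sample here numbered 0.

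Genes entered the test if 8 libraries reached the CPM that 10 counts give at median depth and if all libraries together held 15 counts. Limma-voom (limma 3.58.1, R 4.3.3; prior count 0.5; TMM scaling trimming 30% of log ratios and 5% of mean levels) was fitted to all 32 libraries with 1 mean per group. A Benjamini-Hochberg adjusted p under 0.05 over 14903 genes was the threshold. On simulated data for diet in wild type with 14903 genes, the test found 76 of the 100 genes set to differ 2-fold and each of the 100 set to differ 4-fold, with 13 false among 189 calls. The simulation gave all genes 1 common relative spread and changed WT NASH-AA alone. The calls here were smaller, 1.25-fold for Dgat2 by diet in wild type and 1.35-fold for Agpat2 by genotype on NASH. These rates thus do not describe the test at such differences. Positions, lengths and overlaps come from GENCODE M21, which holds 55227 of the 55487 identifiers.

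Members and lists were chosen with earlier results of these data known. Named genes were the 8 members, up to 4 genes past the threshold in each other list (otherwise the gene with the smallest p), and the 3 genes most correlated with each member, of which 1 is not reported here. The 2 averaged comparisons were added after the data were seen. Alternatives were other scalings, filters, weights and sample sets, and omission of each library in turn.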

Additional observations from a re-analysis of the deposited data

Results flagged for a closer look

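In 5 of the 32 sets formed by 8 enzymes and 4 groups, 1 library lay far from the other 7 on the log2 CPM scale. Its gap to its nearest neighbour, as a share of the group's range of log2 CPM, was above Dixon's 95% critical value. The values below are printed as CPM, on which the gap and range were not compared. Chance gives about 1 in 20 such sets. FAAH S268D NASH-AA replicate 3 did so for 2 genes, Dgat2 at 498 CPM (nearest 641) and Gpam at 417 CPM (nearest 248). WT NASH-AA replicate 1 stood at 284 CPM for Agpat2 (nearest 226), and WT NASH-AA replicate 3 at 331 CPM for Agpat3 (nearest 289). FAAH S268D NASH replicate 3 stood at 1.78 CPM for Mogat1 (nearest 6.21). Without FAAH S268D NASH-AA replicate 3 the diet difference of Dgat2 in FAAH S268D was 0.41 on the log2 scale and past the threshold.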

How the results depend on the processing

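Median-of-ratios scaling and the other reading of ambiguous cells left the number of enzymes called as it was in every comparison. For diet in wild type (1 called), 0 were called with library totals, no low-count filter, a replicate block, limma-trend, or library numbers 1 to 16 or 17 to 32 alone, 2 with quality weights, and 0 to 1 with 1 library left out. For diet in FAAH S268D (0 called), 1 was called with library totals, 2 within 17 to 32 and 3 with quality weights, and 0 to 2 with 1 library left out. For genotype on NASH (1 called), 2 were called with a stricter filter or quality weights, 0 within 17 to 32 or with the 2 groups alone, and 0 to 2 with 1 library left out: 2 without WT NASH replicates 5 or 6, FAAH S268D NASH replicates 5, 6 or 8, or FAAH S268D NASH-AA replicate 3. For genotype on NASH-AA (0 called), 1 was called with quality weights or the 2 groups alone, and 0 to 0 with 1 library left out. Counts of all genes moved more: for diet in wild type 657 became 1683 with library totals, 182 without a filter, 17 with the block, 370 with the number range as a term, 0 and 164 within the ranges, 3759 with quality weights, 247 with limma-trend, 1090 with the 2 groups alone, and 26 to 2191 with 1 library left out (without WT NASH replicates 2 and 5). For diet in FAAH S268D 14 became 25 with library totals, 6 without a filter, 8 with the block, 0 and 371 within the ranges, 1062 with quality weights, 41 with limma-trend and 4 with the 2 groups alone, and 362 without FAAH S268D NASH replicate 3. For genotype on NASH-AA 98 became 63 with the block, 19 and 41 within the ranges, 756 with quality weights and 614 with the 2 groups alone, and 66 to 188 with 1 library left out (188 without WT NASH replicate 5). Averaged over genotypes 1625 became 1078 without a filter, 1071 with the block, 13 within 1 to 16 and 5086 with quality weights, and 1002 (without FAAH S268D NASH replicate 5) to 2700 (without WT NASH replicate 5) with 1 library left out; averaged over diets 2559 became 808 and 60 within the ranges. For genotype on NASH 1368 became 2412, 883, 20 and 73 with library totals, within 1 to 16, within 17 to 32 and with the 2 groups alone. With 1 library left out it was 492 (without FAAH S268D NASH replicate 4) to 2645 (without WT NASH replicate 5). Library totals moved the median of all genes from 0.005 to −0.116 for diet in wild type and from 0.000 to −0.141 for genotype on NASH. The share of calls that were higher moved from 32.7% to 7.37% and from 31.4% to 6.76%. In the averaged comparisons this share moved from 42.4% to 17.9% (diet) and from 40.2% to 12.1% (genotype), and the interaction median moved to 0.108. The cause of these shifts was not tested.

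Of 40 member results, 19 changed sign in at least 1 setting, and none of these was past the threshold in the main test. Not all were small. Over the settings other than omission of a library, genotype on NASH ran from −0.18 to 0.80 for Gpam and from −0.26 to 0.89 for Mogat1. Genotype on NASH-AA ran from −0.64 to 0.19 for Lpin1. With library totals Dgat1 became −0.08 for diet in wild type, −0.02 for diet in FAAH S268D, −0.02 for genotype on NASH and 0.06 for the interaction; Mogat1 −0.02 for diet in wild type; and Agpat3 −0.11 for genotype on NASH. Within 1 to 16, Agpat3 was 0.01 for diet in wild type; Dgat1 −0.07 and Lpin2 0.16 for diet in FAAH S268D; Gpam −0.18 and Mogat1 −0.26 for genotype on NASH; Dgat1 −0.02, Agpat2 −0.05, Lpin1 0.19 and Lpin2 0.08 for genotype on NASH-AA; and Dgat2 −0.24 for the interaction. Within 17 to 32, Dgat1 was −0.06 for diet in wild type; Agpat2 0.02 and Lpin1 −0.01 for diet in FAAH S268D; Dgat1 −0.00 and Lpin2 0.24 for genotype on NASH; and Dgat1 0.17 and Lpin2 −0.41 for the interaction. Dgat1 was −0.01 for diet in FAAH S268D with limma-trend. Lpin2 for genotype on NASH was 0.00 with no filter and 0.07 with quality weights; for the interaction it was −0.06 and −0.17, and Dgat1 0.02 with quality weights. With 1 library left out, Dgat1 ran from −0.02 to 0.06 and Lpin1 from −0.01 to 0.18 for diet in FAAH S268D, Lpin2 from −0.17 to 0.07 for genotype on NASH, and for the interaction Dgat1 from −0.06 to 0.02, Dgat2 from −0.01 to 0.08 and Lpin2 from −0.13 to 0.11.

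Same-numbered libraries of different groups had correlations of −0.38 to 0.33 once each group's mean was removed. The labels do not say whether the replicate numbers pair the samples, and these correlations cannot settle it. With the block, Dgat2 was 0.33 (adjusted p = 0.0717) for diet in wild type, 0.34 (0.00677) averaged over genotypes and 0.27 (0.00780) averaged over diets, Agpat2 0.43 (0.0298) for genotype on NASH, and Agpat3 −0.13 (0.0697) for diet averaged over genotypes. Over the averaged comparisons, enzymes called ranged from 0 to 4 for diet and 0 to 2 for genotype.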
